A study of Arabidopsis thaliana with 30 samples.

Results

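The petiole region of excised eur1-11 leaves of Arabidopsis thaliana was compared between 48 h and 72 h after excision, the step over the third day. Its members were the 3 libraries of eur1-11 at 72 h and the 3 at 48 h, taken by genotype and time, so 6 of 30 libraries entered the comparison. All plants were 21 days old and carried a firefly luciferase gene under the ORE1 promoter (ORE1::LUC) in the Col background. The 4th rosette leaf was cut off and floated on MES buffer at 22 °C in continuous white light, and only the petiole region was sampled. The wild type (WT) was that reporter line, and eur1-11 was a single line from chemical mutagenesis of it with a nonsense mutation in EAR1 (EUR1), whose product restrains abscisic acid signalling. The study followed both genotypes from 0 to 96 h to relate EAR1 to root formation on excised leaves. The corresponding WT step (3 libraries at 72 h and 3 at 48 h) is described below only to show where eur1-11 differed.

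A leaf cut from the plant seals the wound and can form adventitious roots at the petiole base while the blade ages. Sealing layers are rich in suberin, a polyester of long-chain fatty acids, glycerol and phenolic acids that is made by dedicated cytochrome P450 enzymes, fatty acid elongases, reductases and acyltransferases. Leaf ageing in turn is driven by NAC transcription factors, with chlorophyll breakdown among its outputs, and tissue short of oxygen switches on genes of alcoholic fermentation.

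Gene counts summed to at least 33753076 and at most 41873931 per library over these 6, and each detected between 23355 and 24028 genes. The labels do not say that replicates came from separate plants or harvests, so p-values measure only the spread between the 30 libraries fitted. Chloroplast genes took 29.6% ± 1.34 of counts at 48 h and 26% ± 0.751 at 72 h (SD, n = 3). Levels are given below as CPM, which are counts divided by the library total that edgeR scales with TMM factors, and log2 changes are 72 h minus 48 h with the standard error from edgeR. A gene was called at an edgeR adjusted p below 0.05. EAR1 itself stood at 303, 317 and 218 CPM at 48 h and at 232, 239 and 196 CPM at 72 h (replicates 1, 2 and 3). Its change of -0.32 ± 0.16 was not called (edgeR, adjusted p = 0.393). A nonsense mutation leaves the gene in place, so these counts do not check the genotype label.

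Replicate 3 stood apart from replicates 1 and 2 at both times. Across 16203 genes, the log2 changes of pairs 1 and 2 correlated with r = 0.759, whereas pair 3 reached r = 0.197 with pair 1 and 0.294 with pair 2. These are descriptions across genes, which are not independent replicates. At 48 h the summed level of 17 salicylate and systemic defence genes was 1530 CPM in replicate 1, 1560 in replicate 2 and 3980 in replicate 3. Xylem wall genes ran the other way at that time, with 134, 124 and 60.9 CPM, and so did 19 mitosis genes, with 234, 228 and 126 CPM. The WT pair of number 3 resembled the eur1-11 pair of number 3 (r = 0.684 across genes) more than it resembled eur1-11 pairs 1 and 2 (r = -0.0723 and 0.0799). In the other direction, eur1-11 pair 3 reached r = 0.421 and 0.457 with WT pairs 1 and 2. Both values were above those it had with eur1-11 pairs 1 and 2. Raw counts of 2 libraries were also compared by a chi-square per degree of freedom. It was 6.82 at 48 h and 11.6 at 72 h between replicates 1 and 2. Pairs with replicate 3 gave 83.6 and 99.5 at 48 h and 62.9 and 56.7 at 72 h. What set replicate 3 apart was not tested, and results are therefore given with all replicates and again with replicate 3 left out of every group. Calls of the latter setting rest on the smaller spread between replicates 1 and 2.

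Of 21472 genes tested, 282 (1.31%) were called, 160 higher at 72 h (0.745%) and 122 lower (0.568%). Of these, 115 rose and 10 fell by at least 2-fold. In all, 159 of the 160 higher genes and 122 of the 122 lower ones moved in the same direction in all 3 pairs, as did 45% of all tested genes. The 48 h and 72 h libraries did not overlap for 138 of the 160 and 113 of the 122, against 23.3% of all tested genes. The split depended on the scaling. Under total counts 225 genes were called higher and 25 lower (90% higher, against 56.7%), and under size factors from the relative log expression method (RLE) 66.7% of calls were higher. Without replicate 3, where the spread came from replicates 1 and 2 alone, 5076 genes (23.6%) were called. Of these 2443 were higher (11.4%) and 2633 lower (12.3%), and they included all 160 and all 122. Without replicate 1, and likewise without replicate 2, edgeR called 0 genes, with 1099 and 1036 genes at an unadjusted p below 0.05. These counts are close to the share of 0.05 of all genes that would pass with no change at all.

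Suberin genes were among those that rose. Of 15 genes on the suberin list 14 were tested and 3 rose, against 0.745% of all genes, and 9 of 14 rose without replicate 3, against 11.4%. Fits of the eur1-11 libraries alone, or of only the groups compared, called 0 of the 14, with medians of 1.48 and 1.49. The median log2 change of the list was 1.42, beside -0.02 for all genes, and it was 1.01, 0.95 and 2.32 in pairs 1, 2 and 3. CYP86A1 (AT5G58860, chr5:23765791-23768111), the P450 enzyme that hydroxylates long-chain fatty acids for root suberin, stood at 1.69, 1.57 and 0.0596 CPM at 48 h and at 15.5, 14.2 and 20.3 CPM at 72 h. All 72 h libraries were far above all 48 h libraries, and replicate 3 started from the lowest level. The log2 change was 3.89 ± 0.69 (edgeR, adjusted p = 0.0109), or 3.19 without replicate 3.

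KCS2, a fatty acid elongase of suberin synthesis, went from 1.17, 1.5 and 0.933 CPM to 3.64, 3.63 and 5.23 CPM (1.75 ± 0.35, edgeR adjusted p = 0.0139). FAR4, which reduces fatty acids to the primary alcohols found in suberin, went from 2.55, 1.96 and 1.15 CPM to 5.87, 5.53 and 5.52 CPM (1.62 ± 0.38, edgeR adjusted p = 0.0374). Neither gene overlapped between the times, and without replicate 3 the changes were 1.43 for KCS2 and 1.34 for FAR4. Reads of KCS2 cannot be told apart from those of the overlapping gene AT1G04210. Several other members had separate groups without being called. GPAT5, the acyltransferase that joins suberin acids to glycerol, was at 2.19, 1.48 and 0.873 CPM against 5.33, 4.52 and 8.64 CPM (edgeR, adjusted p = 0.096). ABCG6, an exporter of suberin precursors, was at 5.2, 4.33 and 1.53 against 12.2, 9.99 and 16.6 CPM (edgeR, adjusted p = 0.0911). ASFT, the feruloyl transferase of suberin, was already at 40.2, 33.3 and 17.5 CPM at 48 h and at 40.4, 35.1 and 61.7 CPM at 72 h, with overlapping groups. In bulk tissue, more cells of a type and more RNA per cell cannot be told apart.

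**Figure D1:**
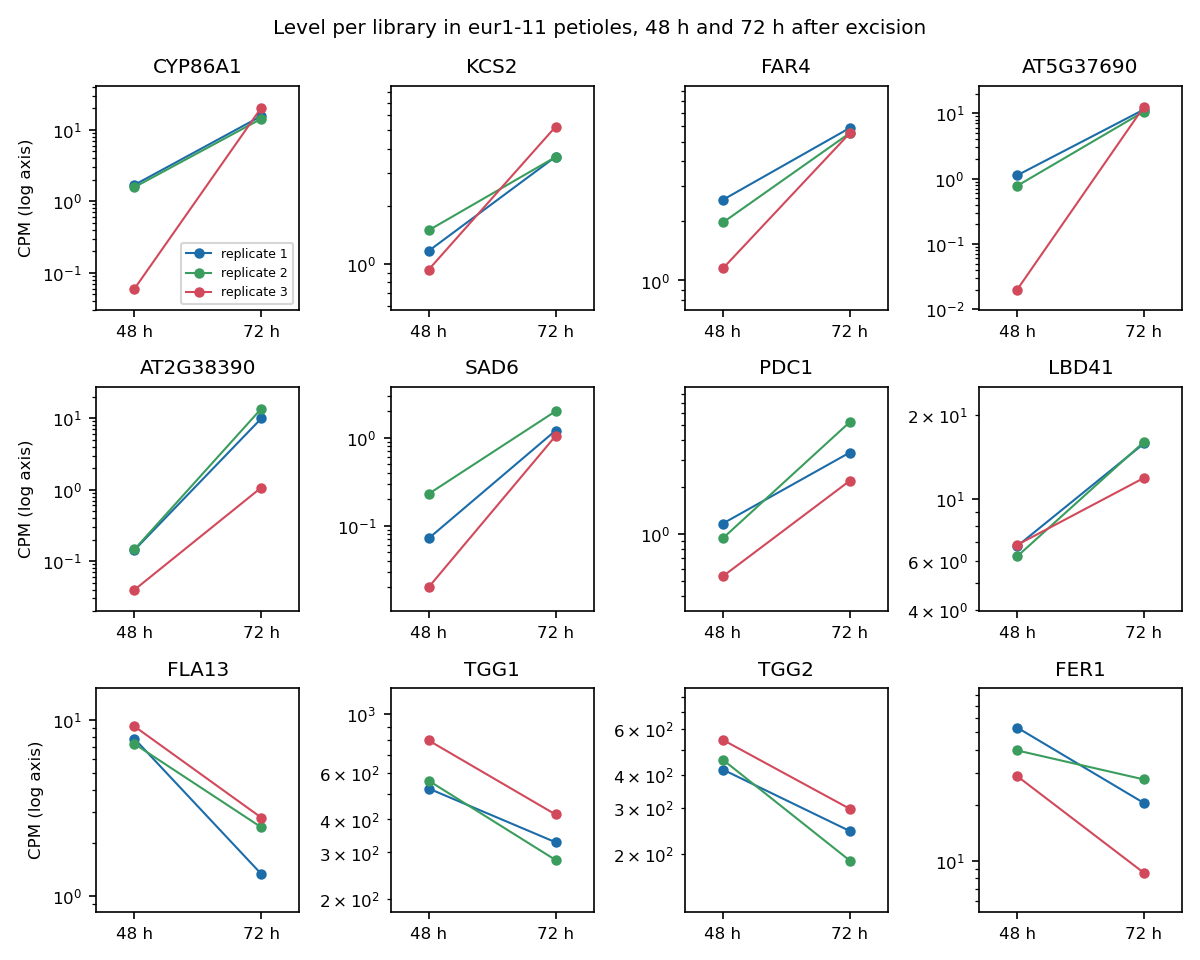
Level in CPM on a log axis of 12 called genes in each eur1-11 library at 48 h and 72 h; lines join libraries of equal replicate number and colours mark the replicate. The first 8 panels rise and the last 4 fall in all 3 pairs, and for CYP86A1 replicate 3 goes from 0.0596 to 20.3 CPM.

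Further called genes share roles with that list, and they were picked out after their values were seen, so they carry no weight beyond their own tests. FACT, an acyltransferase that makes the caffeate esters of suberin-associated waxes, had 1 count over the 3 libraries at 48 h and 378 counts at 72 h. Its levels were 0, 0.0209 and 0 CPM against 3.72, 3.7 and 0.377 CPM, separate but low in replicate 3 (edgeR, adjusted p = 0.0299). MYB9, a transcription factor that activates suberin genes, went from 0.334, 0.418 and 0.337 to 0.985, 1.16 and 2.24 CPM (1.96 ± 0.40, edgeR adjusted p = 0.0169). NAC058 went from 0.262, 0.251 and 0.0199 to 3.32, 2.98 and 3.43 CPM (4.22 ± 0.66, edgeR adjusted p = 0.0047). For both factors every 72 h library was above every 48 h library. MYB41, another activator of suberin genes, was not called (-0.45 ± 0.74, edgeR adjusted p = 0.848).

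The rise also held members of secreted enzyme and wall protein families. These families were formed from RefSeq product names after the called genes had been seen, so their counts are descriptions. Of 50 tested peroxidases 5 rose (0.745% of all genes rose) and 0 fell, with a family median of -0.01. AT2G38390 went from 0.143, 0.146 and 0.0397 CPM to 9.93, 13.6 and 1.07 CPM (6.07 ± 1.05, edgeR adjusted p = 0.0109). Its neighbour AT2G38380 (chr2:16076289-16078781, on the same strand as AT2G38390 at chr2:16079679-16081671) went from 30.3, 25.1 and 4.64 CPM to 91.8, 82.2 and 54.4 CPM (2.1 ± 0.45, edgeR adjusted p = 0.0208). Both were lowest in replicate 3 at each time, and how reads shared by such neighbouring copies were counted is not given in the sources used here.

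Of 72 tested GDSL and SGNH esterases, a family with acyl-ester hydrolases and cutin and suberin enzymes, 4 rose (beside 0.745% of all genes), among them AT5G37690, AT2G23540 and AT1G74460. AT5G37690 went from 1.12, 0.773 and 0.0199 CPM to 11.4, 10.6 and 12.6 CPM (4.2 ± 0.74, edgeR adjusted p = 0.0153), and AT2G23540 from 3.65, 2.59 and 0.635 to 17, 14.8 and 27.9 CPM (3.04 ± 0.54, edgeR adjusted p = 0.00874). The 48 h level of each was lowest in replicate 3, and neither overlapped between times. Of 28 tested UPF0497 proteins, the family that holds the Casparian strip membrane proteins, 2 rose (AT5G44550, 2.79 ± 0.62, and AT4G20390, 2.61 ± 0.46). Of 43 tested members of the lipid-transfer protein family 3 rose (AT3G58550, AT2G18370 and EDA4). The medians of these families were -0.02, 0.08 and -0.03, close to that of all genes. A fit of the eur1-11 libraries alone called 0 peroxidases, 1 esterase, 1 UPF0497 protein and 1 lipid-transfer protein higher. Without replicate 3, where 11.4% of all genes rose and 12.3% fell, the calls were 16 higher and 8 lower for peroxidases, 15 and 11 for the esterases, 5 and 2 for UPF0497 proteins and 9 and 10 for lipid-transfer proteins, so members of each family went in both directions.

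**Figure D2:**
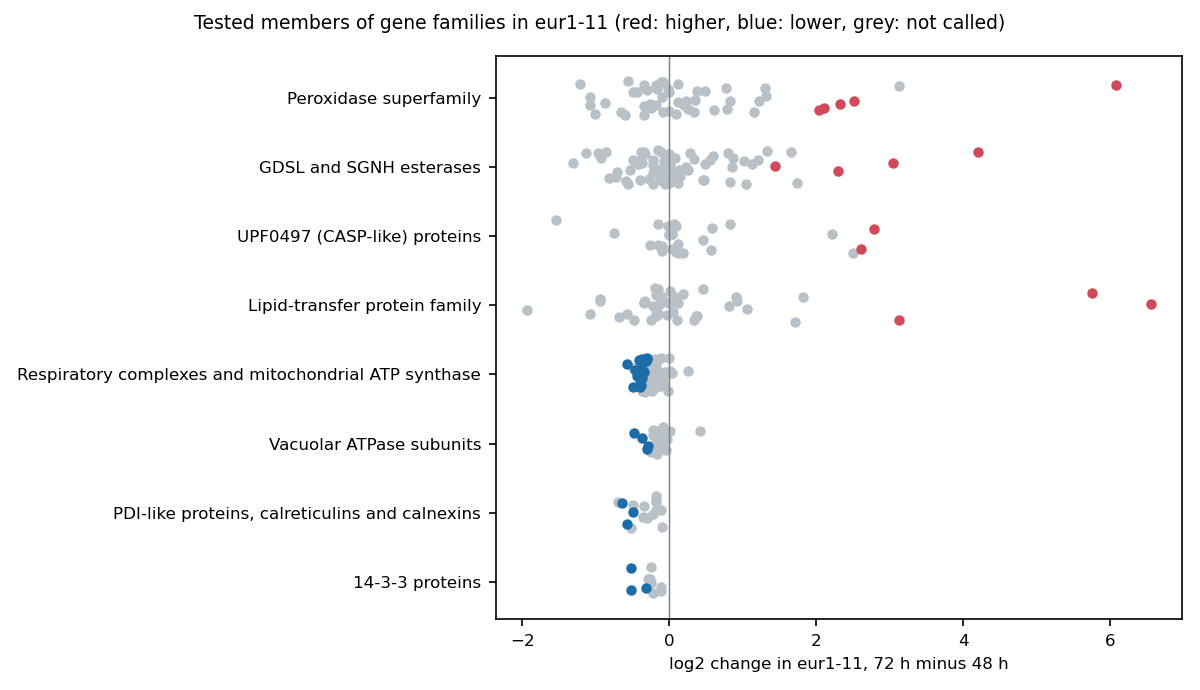
Log2 change (72 h minus 48 h) of each tested member of 8 gene families in eur1-11; red points were called higher, blue points lower and grey points were not called, and vertical scatter within a row has no meaning. In the 4 upper families a few members lie far to the right, such as AT2G38390 at 6.07, while the 4 lower families have medians between -0.32 and -0.17.

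Other genes among the 12 highest at 5 CPM or more were AT5G09480 (4.2 ± 0.55) and AT4G38080 (2.64 ± 0.48), both hydroxyproline-rich glycoproteins, AT4G24140 (3.12 ± 0.48), an alpha/beta-hydrolase, JAL33 (2.87 ± 0.51), a mannose-binding lectin, MSRB7 (2.12 ± 0.42), which repairs oxidised methionine, and AT5G20860 (2.14 ± 0.53), of the pectin methylesterase and inhibitor superfamily. JAL33 went from 7.2, 7.32 and 0.873 CPM to 40.1, 41.3 and 20.2 CPM. MSRB7 went from 13.2, 16.7 and 2.02 CPM to 66.8, 51.2 and 13.6 CPM, and its groups overlapped because replicate 3 was low at both times. Each of these 6 genes rose in all 3 pairs.

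Genes of the low oxygen response rose as well. Of 13 tested genes 5 rose and 0 fell, where 0.745% of all genes rose, and without replicate 3 the counts were 10 and 0, where 11.4% rose. A fit of the eur1-11 libraries alone called 1 of the 13 higher, and a fit of only the groups compared called 0. The median of the list was 0.93, and it was 1.22, 1.06 and 1.0 in the 3 pairs. SAD6 (chr1:16577521-16579722), an acyl carrier protein desaturase that is induced by low oxygen, went from 0.0716, 0.23 and 0.0199 CPM to 1.21, 2.01 and 1.05 CPM (3.71 ± 0.54, edgeR adjusted p = 0.00555). PDC1, a pyruvate decarboxylase of fermentation, went from 1.17, 0.941 and 0.536 CPM to 3.34, 5.24 and 2.2 CPM (2.03 ± 0.34, edgeR adjusted p = 0.00555). All 3 pairs of both genes rose and the times did not overlap. Without replicate 3 SAD6 changed by 3.33.

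SUS4, a sucrose synthase, had a change of 1.73 ± 0.39, PCO2, a cysteine oxidase that takes part in oxygen sensing, of 1.80 ± 0.34, and LBD41, a transcription factor induced by low oxygen, of 1.13 ± 0.23. SUS4 was the least even of them, with pair changes of 1.82, 2.70 and 0.63. The alcohol dehydrogenase ADH1 stood at 12.7, 12.5 and 13.8 CPM against 19.5, 20.1 and 17 CPM, separate but not called (edgeR, adjusted p = 0.13). The haemoglobin gene HB1 was at 3.01, 2.4 and 9.59 CPM at 48 h and at 5.49, 5.72 and 7.62 CPM at 72 h, with overlapping groups.

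Of 45 lists written by hand, 6 held a called gene. The other 4 lists gave 1 call each. ELF4, an evening clock gene, went from 0.191, 0.105 and 0.0993 to 0.503, 0.655 and 0.439 CPM (2.0 ± 0.41, edgeR adjusted p = 0.0153). Its list of 11 had a median of 0.41 and all 11 members had a positive change, with GI and PRR5 just past the threshold (edgeR, adjusted p = 0.0521 and 0.0534). SGR1, which starts chlorophyll breakdown, went from 21.5, 19.2 and 23.1 to 36.1, 32.6 and 27.5 CPM (0.60 ± 0.12, edgeR adjusted p = 0.0188). FRA8, a xylan synthesis gene on the xylem list, rose by 0.88 ± 0.20 (edgeR, adjusted p = 0.0314) and TGG1, on the guard cell list, fell, as described below. ELF4, SGR1 and FRA8 each rose in all 3 pairs without overlap, and FRA8 shares its position with AT2G28105.

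**Figure D3:**
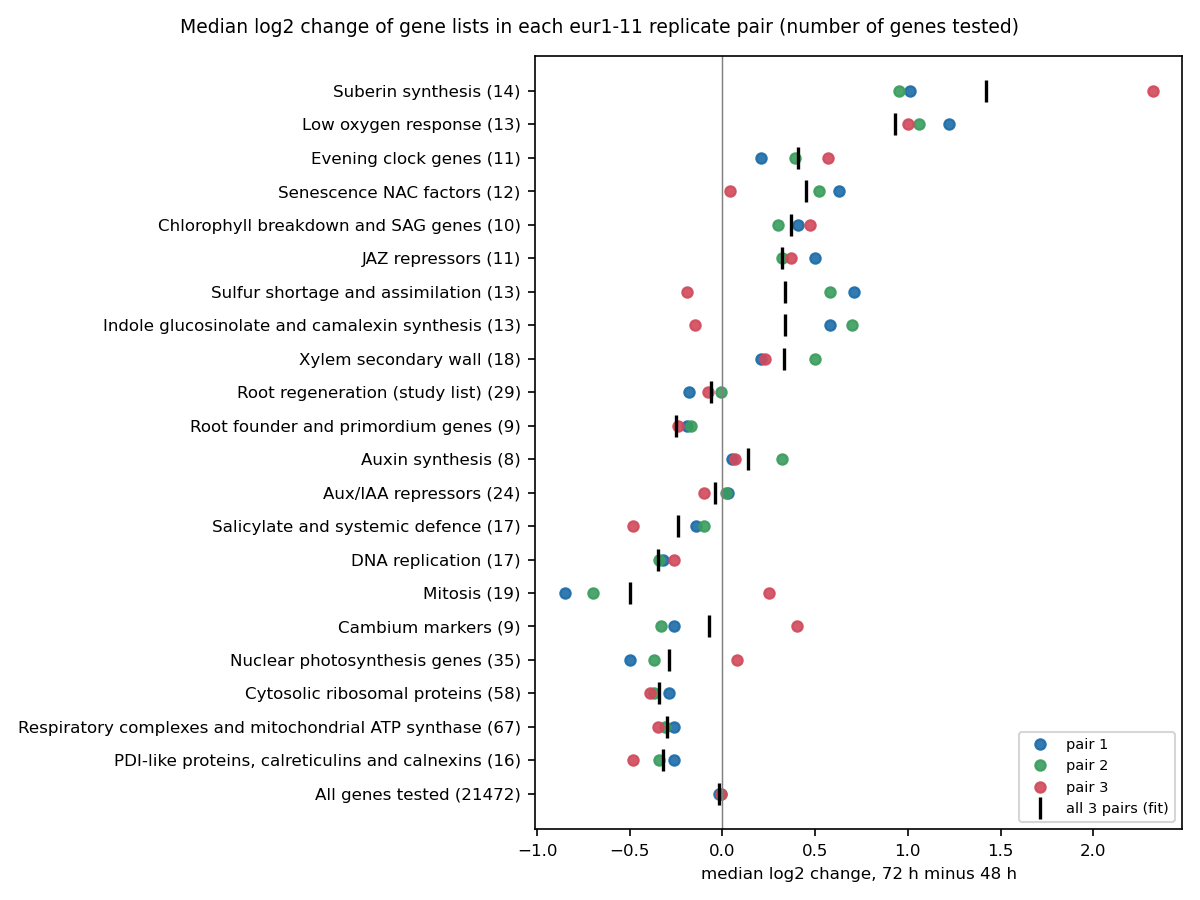
Median log2 change (72 h minus 48 h) of 21 gene lists and of all genes tested in each replicate pair of eur1-11 (coloured points) and in the fit over all 3 pairs (black ticks); the number of genes tested is in brackets. Suberin and low oxygen lists lie right of 0 in every pair, while for mitosis pairs 1 and 2 are at -0.85 and -0.70 and pair 3 lies right of 0.

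The list medians of mitosis and photosynthesis genes were negative in pairs 1 and 2 (-0.85 and -0.70 for mitosis, -0.50 and -0.37 for photosynthesis) and positive in pair 3 (0.25 and 0.08), a difference between pairs that was not tested. None of 19 mitosis genes was called with all replicates, while 19 of 19 were called lower without replicate 3, against 12.3% of all genes. Their summed level was 234, 228 and 126 CPM at 48 h and 131, 138 and 150 CPM at 72 h, so replicate 3 was the lowest library at 48 h and the highest at 72 h. HIK, a kinesin of cytokinesis, showed the same order with 28.6, 28.4 and 15.1 CPM against 16.1, 16.1 and 18.6 CPM. Of 35 nuclear photosynthesis genes 0 were called and 33 fell without replicate 3 (summed level 17400, 17400 and 12400 CPM at 48 h, 12300, 13000 and 14000 CPM at 72 h). DNA replication genes were more even, with medians of -0.32, -0.34 and -0.26 in the pairs. Of 17 members 0 fell, or 9 without replicate 3.

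Senescence regulators showed the same dependence. Of 12 NAC factors of senescence 0 were called, and 10 rose without replicate 3, against 11.4% of all genes. ORE1, a NAC factor that promotes leaf ageing, stood at 17.3, 19.2 and 19.9 CPM at 48 h and at 37.8, 33.1 and 26.2 CPM at 72 h. All 72 h libraries were above those of 48 h, with the smallest step in replicate 3, and the change of 0.76 ± 0.28 was not called (edgeR, adjusted p = 0.204). Its promoter drives the luciferase gene of these plants, but the count is of the ORE1 gene. JUB1, a NAC factor that delays ageing, was at 12.9, 13.5 and 26.1 against 31.4, 30.5 and 22.2 CPM, so replicate 3 went the other way. Without replicate 3, where 11.4% of all genes rose and 12.3% fell, 8 of 10 jasmonate output genes rose and 0 fell, 8 of 13 sulfur shortage genes rose and 1 fell, and 8 of 13 genes of indole glucosinolate and camalexin synthesis rose and 0 fell.

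Root formation genes gave no call at this step. Of 20 root founder and primordium genes 9 passed the filter on low counts and 0 were called, and the same held for 29 of 40 genes that the study had compiled on root regeneration. WOX11, the homeobox factor of founder cells, was at 1.07, 0.752 and 3.65 CPM at 48 h and at 1.35, 1.1 and 2.26 CPM at 72 h, with overlapping groups and no steady direction. Its estimate of -0.02 ± 0.42 became 0.44 without replicate 3. The auxin synthesis genes YUC8 (0.34 ± 0.44) and YUC9 (-0.03 ± 0.82) overlapped between times too, and the auxin exporter gene PIN2 was below the filter, at no more than 0.106 CPM in any of the 6 libraries. Of 24 Aux/IAA genes 0 were called, with a median of -0.04. Without replicate 3 the root founder list had 1 call higher of 9 (PLT7, 1.09) and 2 lower (PLT5, -0.43, and SHR, -0.45), and the genes compiled by the study had 2 higher and 5 lower of 29. The shares higher and lower were 11.1% and 22.2% for the founder list and 6.9% and 17.2% for the compiled genes. Of all genes 11.4% rose and 12.3% fell, and the list shares rest on few genes.

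FLA13 had the largest drop among called nuclear genes with a mean of at least 5 CPM. It encodes a fasciclin-like arabinogalactan protein of the cell surface (AT5G44130, chr5:17760865-17762089) and went from 7.8, 7.29 and 9.17 CPM to 1.33, 2.45 and 2.78 CPM (-1.89 ± 0.27, edgeR adjusted p = 0.00266). Its groups were separate, and the change without replicate 3 was -2.0. AT5G03350, a legume lectin, went from 38.9, 39.1 and 194 CPM to 14.2, 12.6 and 62.4 CPM (-1.58 ± 0.27, edgeR adjusted p = 0.00665). The drop was about equal in its 3 pairs (-1.45, -1.63 and -1.64) although replicate 3 was high at both times, so its groups overlapped. FER1, the iron storage protein ferritin, went from 53.2, 39.9 and 28.9 to 20.6, 27.7 and 8.56 CPM (-1.17 ± 0.26, edgeR adjusted p = 0.0301). ACS11, an enzyme of ethylene synthesis, went from 4.99, 5.1 and 9.83 to 2.19, 2.3 and 5.4 CPM (-1.09 ± 0.27, edgeR adjusted p = 0.047), with groups that overlapped through the higher replicate 3. Reads of FER1 cannot be told apart from those of the overlapping gene AT5G01595.

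The myrosinases TGG1 and TGG2, which break down glucosinolates on tissue damage, were the most abundant of the 12 lowest. TGG1 (chr5:9079452-9082384) went from 524, 561 and 797 to 328, 281 and 418 CPM (-0.87 ± 0.17, edgeR adjusted p = 0.0142), and TGG2 (chr5:9072708-9075777) from 420, 458 and 546 to 244, 188 and 297 CPM (-0.98 ± 0.17, edgeR adjusted p = 0.00733). Each fell in all 3 pairs without overlap. Both are neighbouring copies of 1 family, so reads they share are uncertain. TGG1 was also on the guard cell list, whose other 6 tested members were not called, such as KAT1 (0.31 ± 0.18) and FAMA (-0.05 ± 0.22). The remaining genes of the 12 were AT5G18840 (-1.33), a sugar transporter-like protein, AT2G27402 (-1.18), AT5G44568 (-0.83), AT1G68650 (-0.81), APL3 (-0.79), a subunit of the enzyme that feeds starch synthesis, and ABCC12 (-0.76), an ABC transporter.

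Among the 122 lower genes were members of a few protein families, which were formed after the calls had been seen and hold a minority of those genes. Of 67 tested nuclear genes for respiratory complexes and the mitochondrial ATP synthase 20 fell (0.568% of all genes fell) and 0 rose, with a family median of -0.30 and of -0.26, -0.31 and -0.35 in the 3 pairs. The summed level of all 76 members was 3480, 3470 and 3570 CPM at 48 h and 2920, 2770 and 2800 CPM at 72 h, separate and with replicate 3 close to the others. The count of calls depended on the scaling, with 13 under RLE, 21 under upper quartile scaling and 1 under total counts, where the median was -0.23 against 0.06 for all genes. Without replicate 3 it was 43 of 67, where 12.3% of all genes fell. No member was called in fits of the mutant libraries alone or of only the groups compared, with medians of -0.30 and -0.28.

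AT5G15320, an ATP synthase E chain, had the largest change of the family, from 36.1, 35.7 and 34.1 to 25, 22.3 and 23.5 CPM (-0.58 ± 0.11, edgeR adjusted p = 0.0109). AT3G18410, a beta subcomplex subunit of NADH dehydrogenase, went from 47.5, 43.3 and 40.3 to 33.6, 30.1 and 29.2 CPM (-0.50 ± 0.10, edgeR adjusted p = 0.0142). ATP3, the gamma subunit of the ATP synthase, went from 221, 211 and 229 to 175, 167 and 166 CPM (-0.38 ± 0.08, edgeR adjusted p = 0.0165). In all 3 genes every 72 h library was below every 48 h library, and the 3 pairs were close to each other. SDH4 and SDH5 of succinate dehydrogenase (-0.42 and -0.30) and the gamma carbonic anhydrases GAMMA CA2 and GAMMA CA3 of complex I (-0.37 and -0.38) also fell. So did mMDH1, the mitochondrial malate dehydrogenase (-0.52 ± 0.10), which is no member of the family.

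Genes of the respiratory chain are known in plants to carry site II elements in their promoters, short motifs bound by TCP transcription factors. The 250 bases before the RefSeq gene start (build TAIR10.1) were searched on both strands for TGGGCC and TGGGCT, whose matches on opposite strands can overlap each other. At least 1 match lay before 30 of the 67 tested family genes (44.8%) and 11 of the 20 that fell (55%). The share was 21.9% of the 20406 tested genes with such a window, 38.5% of all 122 lower genes and 8.97% of the 156 higher genes with a window. A match is a description of the letters and not a bound site. The windows of the 3 genes above are shown because they carry the motif before the family's lead gene and before 1 subunit each of complex I and the ATP synthase. They lie at chr5:4977220-4977469 (plus strand), chr3:6322893-6323142 (plus strand) and chr2:14021186-14021435 (minus strand), and capitals mark a match on either strand.
AT5G15320: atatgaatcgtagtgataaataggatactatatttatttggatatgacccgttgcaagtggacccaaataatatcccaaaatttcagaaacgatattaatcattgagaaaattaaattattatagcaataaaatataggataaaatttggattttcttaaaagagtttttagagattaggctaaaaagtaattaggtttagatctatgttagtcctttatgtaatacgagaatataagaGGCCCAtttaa
AT3G18410: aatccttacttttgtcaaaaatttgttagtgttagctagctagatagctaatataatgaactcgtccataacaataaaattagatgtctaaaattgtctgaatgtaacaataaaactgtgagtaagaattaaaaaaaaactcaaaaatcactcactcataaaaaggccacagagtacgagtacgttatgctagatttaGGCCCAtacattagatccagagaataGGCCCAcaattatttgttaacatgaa
ATP3: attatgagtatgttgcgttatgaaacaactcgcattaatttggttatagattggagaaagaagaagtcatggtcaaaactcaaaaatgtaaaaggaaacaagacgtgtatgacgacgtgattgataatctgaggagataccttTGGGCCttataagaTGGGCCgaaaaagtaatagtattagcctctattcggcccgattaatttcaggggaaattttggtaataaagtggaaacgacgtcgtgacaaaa

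Of the other motifs searched, the W box core TTGAC lay before 57.1% of the higher genes, 50% of the lower and 45.3% of all. The AC elements ACCAAC or ACCTAC, which MYB factors bind, lay before 20.5%, 16.4% and 15.5%. The G box CACGTG lay before 5.77%, 9.02% and 7.22%, and the telo box AAACCCTA before 2.56%, 1.64% and 3.52%.

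The protein folding and signalling families that fell were smaller. Of 16 tested genes for PDI-like proteins, calreticulins and calnexins, which fold proteins in the endoplasmic reticulum, 3 fell (PDIL1-1, PDIL1-3 and CRT1b), where 0.568% of all genes fell, and the median was -0.32. PDIL1-1 went from 309, 286 and 407 CPM to 218, 196 and 227 CPM (-0.64 ± 0.13, edgeR adjusted p = 0.0135), with the largest drop in replicate 3. SHD, the HSP90 chaperone of the same compartment, went from 680, 693 and 1020 to 566, 513 and 600 CPM (-0.50 ± 0.12, edgeR adjusted p = 0.0469). Of 10 tested 14-3-3 proteins, which bind phosphorylated partners, 3 fell, and GRF3 went from 205, 200 and 185 to 139, 136 and 137 CPM (-0.52 ± 0.09, edgeR adjusted p = 0.00773). Of 27 tested subunits of the vacuolar ATPase 4 fell, with a median of -0.17. Under total counts 1 PDI-like gene, 1 14-3-3 gene and 0 subunits of the vacuolar ATPase were called, while without replicate 3 the lower calls were 12 of 16, 8 of 10 and 12 of 27, beside 12.3% of all genes. Fits of the eur1-11 libraries alone, or of only the groups compared, called no member of these families. Of 58 tested cytosolic ribosomal protein genes 0 were called, with a median of -0.34, and 40 fell and 1 rose without replicate 3, beside 12.3% and 11.4% of all genes.

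The step was then set beside that of WT, to ask whether the third day differed without EAR1. In WT 226 genes (1.05%) were called, 155 higher (0.722%) and 71 lower (0.331%). Both genotypes shared 80 higher genes, which is 50% of those of eur1-11 and 51.6% of those of WT, and 25 lower genes, which is 20.5% and 35.2%, and 0 were called in opposite directions. Of the 160 higher genes 157 had a positive change in WT and of the 122 lower genes 119 had a negative one. CYP86A1 changed by 4.13 in WT, AT2G38390 by 5.69, SAD6 by 4.40 and FLA13 by -1.64, each also called there. The difference between the genotypes' steps, tested as an interaction in edgeR, was called for 0 genes (lowest adjusted p = 1). At an unadjusted p below 0.05 there were 551 genes, and DESeq2 also called 0 (669 unadjusted). Both counts are below the share of 0.05 of the 21472 genes that would pass with no difference at all. Among genes at 5 CPM or more in a group, PDC1 had the lowest p, with 2.03 in eur1-11 and 3.99 in WT (difference -1.96 ± 0.48, unadjusted p = 0.000526 in edgeR, adjusted p = 1). Without replicate 3 that difference was -2.01 ± 0.45 and was called (edgeR, adjusted p = 0.0201). Next came ARPN (-2.01), PRHA (0.56), AT1G25275 (0.46), AT1G33265 (-0.51) and AT4G33740 (0.37), all at an adjusted p of 1 in edgeR.

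**Figure D4:**
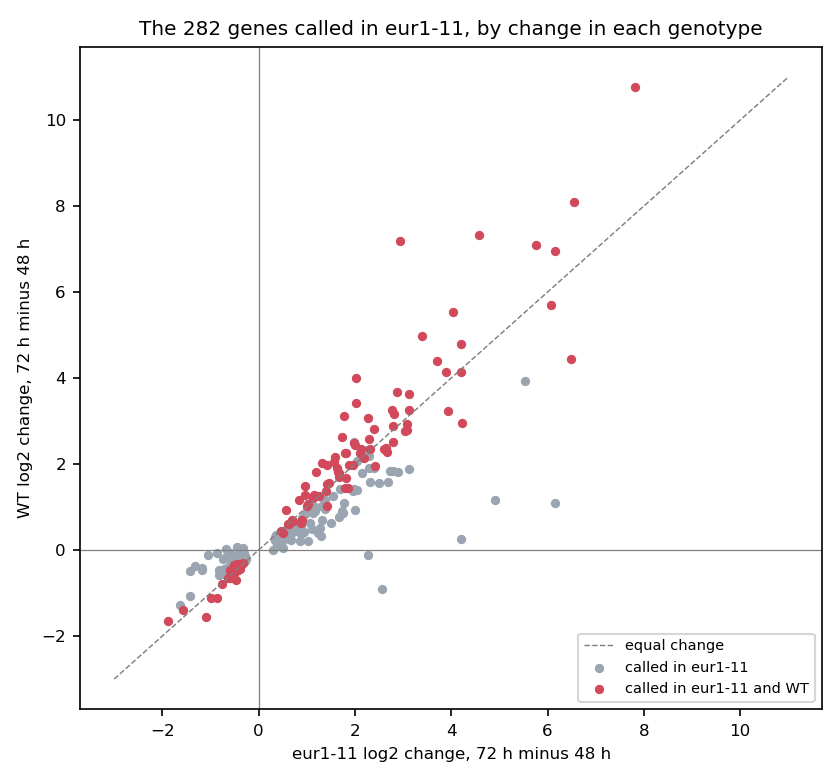
Log2 change (72 h minus 48 h) in WT on the y axis against that in eur1-11 on the x axis for the 282 genes called in eur1-11; red points were also called in WT and the dashed line marks equal change. In all, 157 of 160 higher and 119 of 122 lower genes have the same sign in both genotypes.

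Without replicate 3 the difference was called for 592 genes (2.76%). Copper-responsive genes stood among the lowest adjusted p, and the list described here was written after their values had been seen. In Arabidopsis, low copper is known to switch on transporters and the iron superoxide dismutase FSD1 through the factor SPL7, while microRNAs of the miR398 and miR408 families lower the messages of copper proteins such as the superoxide dismutases CSD1 and CSD2, their chaperone CCS and plantacyanin (ARPN). With all replicates 1 of its 20 tested genes was called in eur1-11, beside 1.31% of all genes. It was AT3G15640, a subunit of cytochrome c oxidase (-0.67 ± 0.15, edgeR adjusted p = 0.0336). It stood at 70.7, 68.8 and 65.2 CPM at 48 h and at 37.7, 35 and 57.2 CPM at 72 h, lower in every pair but least in replicate 3.

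CSD1 in eur1-11 went from 259, 219 and 165 CPM at 48 h to 121, 123 and 346 CPM at 72 h, and in WT from 107, 82.5 and 220 CPM to 262, 241 and 351 CPM. It was thus lower at 72 h in eur1-11 replicates 1 and 2 and higher in eur1-11 replicate 3 and in all 3 WT pairs. Without replicate 3 its changes were -0.97 in eur1-11 and 1.42 in WT (difference -2.39 ± 0.15, edgeR adjusted p = 6.09e-08). CSD2 had the same order, with 44.7, 40.6 and 20.4 CPM against 20.6, 20.6 and 62 CPM in eur1-11 and 19.4, 14.2 and 27.3 CPM against 47.4, 43.5 and 58.9 CPM in WT.

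Several genes known to rise when copper is low went the other way, and others did not. FSD1 in eur1-11 went from 230, 254 and 122 CPM to 370, 403 and 19.7 CPM, and in WT from 471, 565 and 82.8 CPM to 197, 248 and 31.9 CPM. YSL2, a metal chelate transporter gene, went from 9.47, 11.7 and 9.33 to 41.8, 46 and 4.5 CPM in eur1-11 and from 18.9, 33.2 and 4.32 to 10.6, 14.6 and 4.88 CPM in WT. In replicates 1 and 2 both genes were thus higher at 72 h in eur1-11 and lower in WT, while in replicate 3 of eur1-11 they were lower. CCH, a copper chaperone (38.6, 47 and 59.2 against 129, 132 and 40.3 CPM in eur1-11), and ZIP2, a metal transporter (2.41, 3.16 and 0.933 against 9.27, 11.1 and 0.0628 CPM), showed the same order as YSL2 in eur1-11. The transporter gene COPT1 moved little in pairs 1 and 2, by -0.08 and 0.01 in eur1-11 and by -0.12 and -0.28 in WT. LAC12, a laccase and so a copper protein, was lower in those pairs in both genotypes, by -1.12 and -1.04 in eur1-11 and by -0.63 and -0.74 in WT. Over the 20 tested genes of the list without replicate 3, the difference between genotypes was called positive for 7 and negative for 6, beside 2.76% of all genes. As the list was written after these same values had been seen, its count is a description and no support for a copper response. SPL7 itself was even, at 24.1 to 24.9 CPM at 48 h and 27.3 to 27.8 CPM at 72 h. The calls of a difference between genotypes rest on replicates 1 and 2, and with all 3 replicates the difference was called for none of these genes (edgeR, adjusted p = 1).

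**Figure D5:**
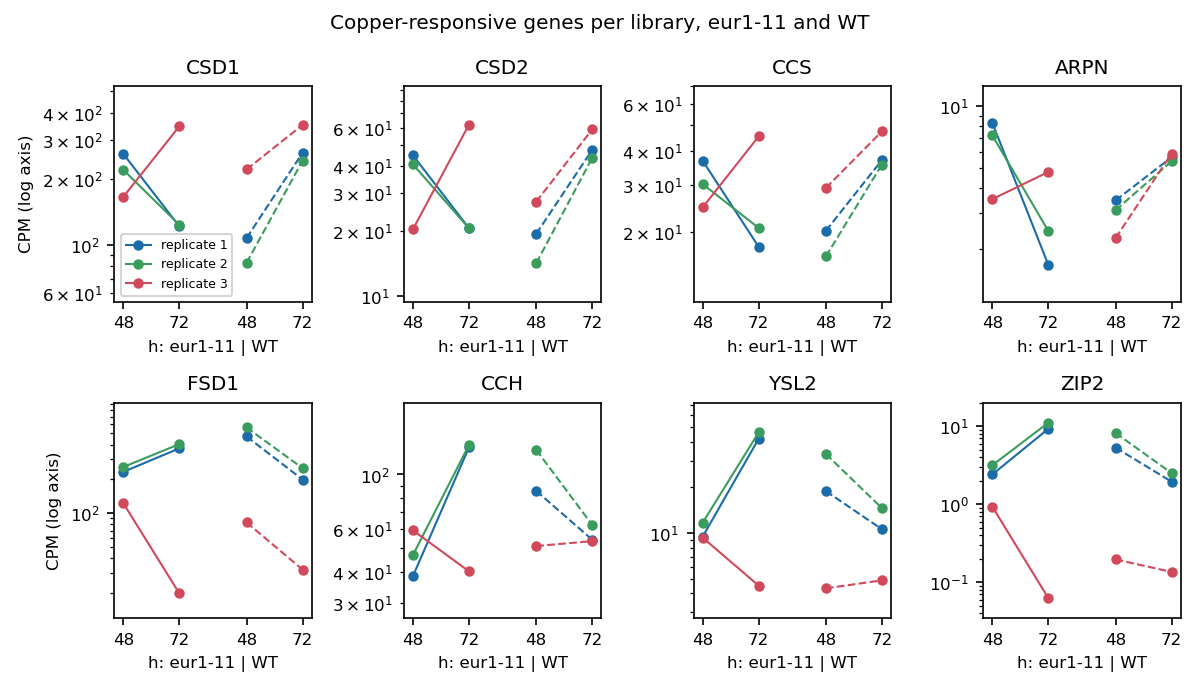
Level in CPM on a log axis of 8 copper-responsive genes in each library of eur1-11 (left pair of each panel, solid lines) and WT (right pair, dashed lines) at 48 h and 72 h, with lines joining equal replicate numbers. In eur1-11 replicates 1 and 2 CSD1, CSD2, CCS and ARPN are lower at 72 h and FSD1, CCH, YSL2 and ZIP2 higher, while replicate 3 has the opposite order.

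Where replicate 3 was left out, the flavonoid and anthocyanin list had the most calls of a difference between genotypes among the 45 lists, at 8 of 14 tested genes, against 2.76% of all genes. In eur1-11 0 of the 14 rose and 2 fell (median -0.34), and in WT 8 rose and 0 fell (median 0.90). Of all 21472 genes, 2443 rose and 2633 fell in eur1-11 in that setting, and 1410 rose and 1127 fell in WT. DFR, a reductase of anthocyanin synthesis, stood in eur1-11 at 49.2, 59.7 and 4.11 CPM at 48 h and at 43.1, 47.4 and 10.7 CPM at 72 h, low in replicate 3 at both times and with overlapping groups. Without replicate 3 its change was -0.27 in eur1-11 and 1.21 in WT (difference -1.47 ± 0.26, edgeR adjusted p = 0.00448). With all replicates 0 of the 14 genes were called in either genotype or for the difference.

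By number of such calls mitosis came next, also without replicate 3. By share, auxin inactivation (3 of 7 tested genes, all positive) and cambium markers (3 of 9, all negative) stood above it. Of the auxin inactivation genes, 5 rose and 1 fell in eur1-11, and 1 rose and 2 fell in WT. In eur1-11 19 of 19 mitosis genes were called lower (median -0.81) and in WT 3 of 19 (median -0.22). Calls were also more frequent in eur1-11 over all 21472 genes, with 2633 lower against 1127 in WT. The difference itself was called for 6 of the 19, against 2.76% of all genes. For senescence NAC factors 10 of 12 were called higher in eur1-11 and 3 of 12 in WT, beside 2443 and 1410 of all genes. The difference was called for 2 of these factors. With all replicates the difference was called for 0 genes of any of these lists.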

How the data were processed

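RNA was sequenced from petiole regions of both genotypes at 5 times, with 3 libraries per group. FastQC, STAR, HTSeq and the TAIR10 build are named in the submitters' processing notes. The authors deposited 1 table of raw HTSeq counts per gene and library, neither normalized nor pooled. Versions and the strand setting are not given in the sources used here, so reads of overlapping or antisense genes, which 66 of the 282 called genes have, cannot be told apart. Reads on no gene (4.4 to 5.69% of the 6 libraries) and ambiguous reads (2.47 to 2.68%) were left out.

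Counts were fitted with edgeR 4.0.16 (R 4.3.3) by quasi-likelihood F tests over all 30 libraries, with TMM factors, filterByExpr by group and the replicate number as a block, a factor the study also fitted. Adjusted p-values (Benjamini-Hochberg) were called below 0.05. Numbers were treated as pairs because the study fitted them as a factor. Deviations from the group mean at 48 h and 72 h correlated with r = 0.176, 0.549 and 0.54 for numbers 1, 2 and 3, over 16203 genes. No label names a shared day, and numbers 1 and 2 were not told apart: 48 h replicate 1 against 72 h replicate 2 gave 0.489, and 48 h replicate 2 against 72 h replicate 1 gave 0.288. Tested on simulated data for this comparison (21472 genes), the fit recovered 78% of genes changed 2-fold and 100% of those changed 4-fold, with 9 false calls. The simulation gave all genes the same dispersion (0.0358) and no replicate effect, and changed only genes with a mean above 5 CPM. It therefore checks the code and does not give the power or error rate in these data, where replicate 3 stood apart. Named genes were EAR1, YUC8, YUC9, PIN2 and WOX11, the 12 highest and 12 lowest called nuclear genes with a mean of at least 5 CPM in the higher group and 1 direction in all 3 pairs, the top called members of each list (up to 4) or its lowest p, and the 6 lowest interaction p (PDC1, ARPN, PRHA, AT1G25275, AT1G33265 and AT4G33740). Further genes are named as chosen after their values were seen. The comparison, its members and the 45 lists were chosen with earlier results of these data known. Names came from RefSeq TAIR10.1, which held 32835 of 33602 identifiers. DESeq2 1.42.0, other scalings, filters, blocks and left-out libraries were alternatives.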

Additional observations from a re-analysis of the deposited data

How the results depend on the processing

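The count of called genes depended on the libraries and on the model. Against 282 calls for eur1-11 72 h versus 48 h and 226 for WT 72 h versus 48 h, DESeq2 gave 714 and 563, the fit with no replicate block 132 and 72, a replicate block within each time 931 and 405, only the groups compared with the replicate block 74 and 347, and only the genotype with the replicate block 28 and 81. All 282 eur1-11 calls were among those of DESeq2. Total counts gave 429 in WT, where they moved the median of all genes from -0.01 to 0.13. With RLE, upper quartile scaling, nuclear genes only or no filter, the counts stayed within 1.5 times (188 to 295 in eur1-11). Leaving out 1 replicate number gave 0 to 5076 calls in eur1-11, 0 to 2537 in WT and 0 to 592 for the difference between genotypes, the highest each time without replicate 3. Leaving out single libraries gave 50 to 197 calls in eur1-11 and 76 to 124 in WT. The difference between genotypes had 0 calls in every other setting that tested it.

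Near 0, YUC9 turned to 0.04 (total counts), 0.01 (DESeq2), 0.38 (without replicate 1), and 0.16, 0.05 and 0.25 without 48 h replicate 1, 48 h replicate 2 and 72 h replicate 1 of eur1-11. WOX11 turned to 0.05 (total counts), 0.02 (DESeq2), 0.44 (block within each time), 0.02 (only the groups compared), 0.44 (without replicate 3), and 0.01, 0.32, 0.08 and 0.15 without 48 h replicate 1, 48 h replicate 3, 72 h replicate 2 and 72 h replicate 3 of eur1-11. Leaving out libraries gave -0.30 to 0.38 for YUC9 and -0.31 to 0.44 for WOX11. The causes were not tested. Depth limits low genes, and intervals of counts cover counting error only.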
